A study of Mus musculus with 3 samples.

Results

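Genes for the processing, folding, secretion and cross-linking of collagen were described in single cells of ectopic tissue masses. They are 42 listed genes of the 31053 in the deposited tables, found by symbol; 1 of them was listed as Leprel1, an older name that RefSeq gives for P3h2, the symbol used in the tables. Their UMI counts (unique molecular identifiers, 1 per captured molecule) were summed per library over mesenchymal cells, defined as cells with at least 1% of their UMIs from Col1a1, Col1a2 and Col3a1 together. The same was done for cells with and without a UMI of Inhba, the gene of the activin A subunit, of Pi16, a gene of fibroblast progenitors, or of Col2a1, the cartilage collagen. Macrophages of the same libraries were set against them.

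The masses came from mice of the CD1 strain and were taken on day 5 after implantation. The antibody library held cells of implants of Matrigel, a basement membrane gel, mixed with recombinant human BMP2, in mice given an antibody that neutralizes activin A. The IgG library held cells of the same Matrigel and BMP2 implants in mice given pre-immune IgG as a control. The Matrigel library held cells of implants of Matrigel alone, and its label names no IgG, so between the IgG and Matrigel libraries an effect of BMP2 and one of IgG cannot be told apart. Matrigel is thus common to all 3 groups, the sources used here give neither the age nor the number of the mice, and each group had 1 library without replicates. No test was possible, ratios compare these libraries only, and the intervals given are 95% intervals that cover counting error only.

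A procollagen chain enters the endoplasmic reticulum through the Sec61 channel, is hydroxylated on prolines and lysines, and folds into a triple helix with the help of chaperones that serve collagen and others that serve all secreted proteins. COPII coats carry it onward, proteinases cut its end pieces off, and enzymes of the lysyl oxidase family oxidize lysines for the cross-links of the fibril. When unfolded proteins build up, the unfolded protein response raises chaperone genes through promoter elements bound by ATF6 and XBP1.

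The best known of these promoter elements is the endoplasmic reticulum stress element, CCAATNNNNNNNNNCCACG. It was searched on both strands in the 250 bases before the start of each gene, in RefSeq promoters of build GRCm38.p6. Of the 42 members 31 had a promoter there, and the element was found in 5 of them, 16.1%, against 35 of 27025 genes with a promoter, 0.130%. All 5 are general chaperones, and they are shown because their levels were lower in the cells with most collagen in both BMP2 libraries, as described further on. Chaperone genes are the kind that the unfolded protein response raises through such elements, and the list was chosen to include general chaperones. The shares of 16.1% and 0.130% are therefore no independent test of enrichment. The capitals mark the element, on the strand of the gene; in Calr it lies in the reverse orientation, and Hsp90b1 has a second copy, not shown, in the reverse orientation.
Hspa5, chr2:34772020-34772048, plus strand: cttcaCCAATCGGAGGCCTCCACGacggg
Hsp90b1, chr10:86705633-86705661, minus strand: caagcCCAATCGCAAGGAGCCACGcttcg
Pdia6, chr12:17266486-17266514, plus strand: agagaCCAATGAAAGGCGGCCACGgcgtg
Calr, chr8:84847070-84847098, minus strand: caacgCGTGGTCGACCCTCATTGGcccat
Canx, chr11:50325795-50325823, minus strand: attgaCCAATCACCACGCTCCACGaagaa
Pdia3 and Pdia4, the other general chaperones of the list, had a promoter without a match. The related element ATTGGNCCACG was found in 1 member, Herpud1, and in 10 genes of all (0.0370%), the XBP1 element TGACGTGG in 1 member, Sec24d, and in 163 genes (0.603%), and the ATF4 element TGATGNAA in 1 member, again Herpud1, and in 1056 genes (3.91%). None of the matches in members overlapped another. These are matches of letters only.

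After filtering, 5682, 5674 and 8542 cells were kept in the antibody, IgG and Matrigel libraries, of total depths of 38163880, 46317250 and 44252421 UMIs. The libraries shared between 6 and 18 cell barcodes in pairs. Mesenchymal cells numbered 592 (10.4%), 1478 (26.0%) and 1982 (23.2%), at median depths of 19186.5, 17191 and 8752.5 UMIs, and macrophages 2087, 2513 and 4503, at medians of 4616, 3332 and 2794 UMIs. All 9 other matrix genes used to check the mesenchymal label (such as Dcn and Fbn1) were present, at summed levels of 14452.5, 14040.4 and 19204 CPM (counts per 1000000 UMIs of the class) in mesenchymal cells and 59.1, 195 and 159 CPM in macrophages. The 10 macrophage markers, none at 0 in either class, summed to 113, 139 and 189 CPM in mesenchymal cells and to 15684, 16449 and 18272 CPM in macrophages. The 5 chondrocyte markers summed to 629, 2969 and 0.106 CPM in mesenchymal cells, with Matn1 at 0 in the antibody library and Col9a1, Matn1 and Hapln1 at 0 in the Matrigel library. A 3' UMI count depends on the capture of each transcript's end, so levels are compared within a gene and not between genes.

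What accompanied BMP2 in the implant was asked by setting the IgG library against the Matrigel library. Plod2, Plod3, P3h2, P3h4, Fkbp10, Sec61b and Loxl3 were higher in the mesenchymal cells of the IgG library, while Loxl1 and Loxl2 were lower. A gene was taken as measured with 10 or more UMIs on either side of a comparison, which all 42 members met, and as higher or lower from a difference of 1.5-fold on. With that rule 7 members were higher and 2 lower, and 33 lay within the limits. Of the 14339 genes measured, 16.6% were higher and 21.1% lower by the same rule. The share of members that were higher, 16.7%, was at this background of all measured genes, and the share that were lower, 4.76%, was under it. The median log2 ratio was 0.28 over the members and -0.03 over all genes.

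What accompanied treatment against activin A in BMP2 implants was asked by setting the antibody library against the IgG library. Loxl4, Sdf2l1, Loxl1 and Loxl2 were higher in the antibody library, and P3h2 and P4ha3 were lower. Thus 4 members were higher and 2 lower, against a background of 9.9% and 12.7% of 14009 genes, and 36 members lay within the limits. The median log2 ratio was -0.14 over the members and -0.08 over all genes. Antibody over Matrigel, which shares both libraries with the other comparisons, gave 7 members higher and 2 lower, against 11.6% and 22.1% of 13772 genes. Here the median was 0.14 over the members and -0.15 over all genes. Low counts reach the limits more easily: among genes counted with 100 UMIs or more on either side the background was 12.8% higher and 17.1% lower for IgG over Matrigel, and 6.11% higher and 7.88% lower for antibody over IgG. For antibody over Matrigel it was 8.17% higher and 18% lower. The shares of members higher, 16.7%, 9.52% and 16.7% in this order, stood above that background, and the share lower, 4.76% in each, under it. P3h2 was counted in, though under 100 UMIs on both sides of antibody over Matrigel.

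**Figure D1:**
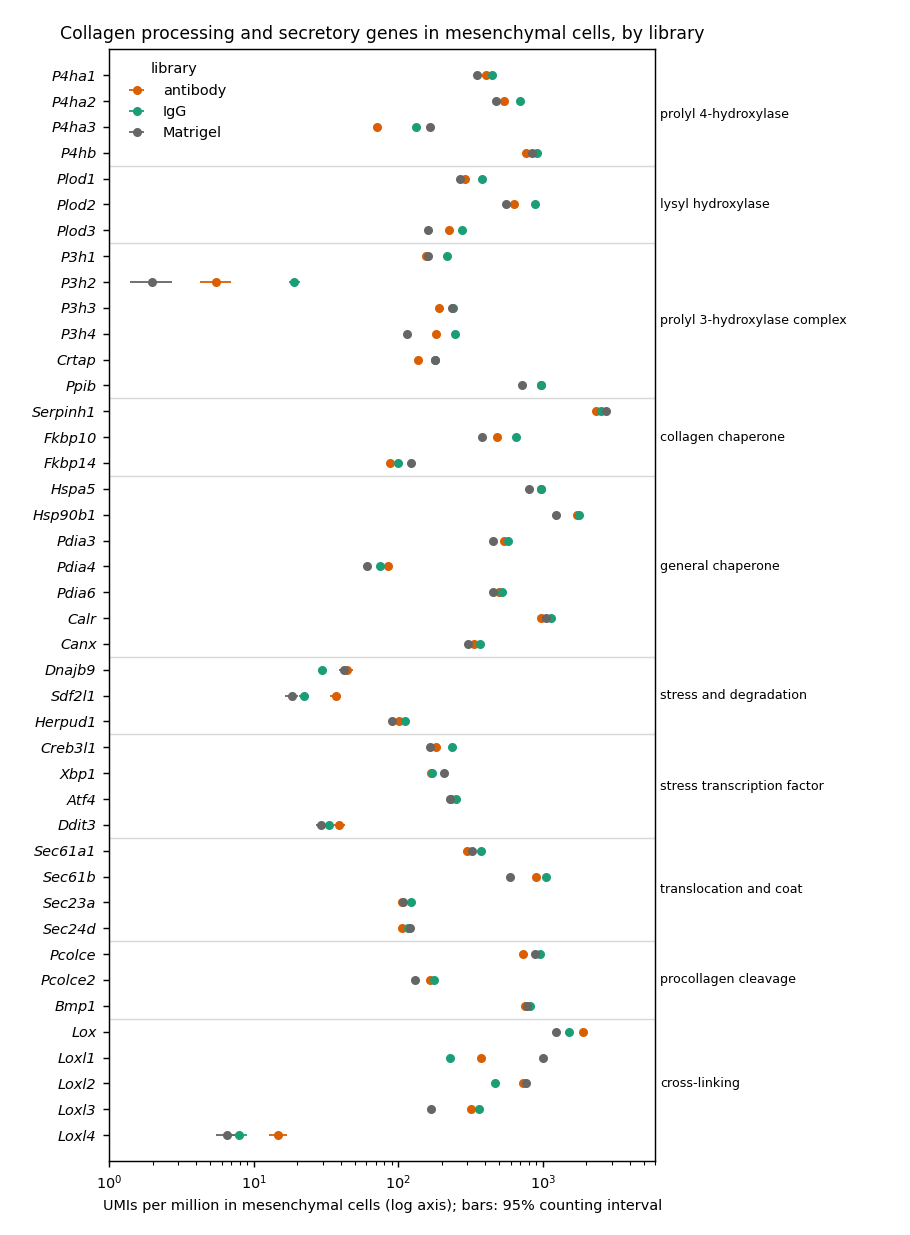
Levels of the 42 members in mesenchymal cells, as CPM on a log axis, with 1 point per library and bars for the 95% counting interval, grouped by role. Most points of a gene lie close together, and P3h2, Loxl1, P4ha3, Loxl4, P3h4 and Loxl3 are among those that spread more widely.

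Prolyl 4-hydroxylase, which makes the hydroxyproline that stabilizes the triple helix, has a catalytic alpha subunit and a beta subunit, P4hb, which is also a disulfide isomerase. P4ha1, an alpha subunit, stood at 403 CPM with antibody, 443 CPM with IgG and 348 CPM with Matrigel alone. IgG over Matrigel was 1.27-fold (1.24 to 1.31) and antibody over IgG 0.909-fold (0.879 to 0.939), both within the limits. P4ha2, the second alpha subunit, stood at 542, 691 and 474 CPM in the same order, and P4hb at 762, 910.5 and 845 CPM. P4ha3, another alpha subunit, stood at 71.0 CPM with antibody, 132 CPM with IgG and 166 CPM with Matrigel alone. It was 1.86-fold lower (1.73 to 2.00) in the antibody library than in the IgG library and 2.34-fold lower (2.17 to 2.52) than in the Matrigel library, while IgG over Matrigel was 0.794-fold (0.756 to 0.833). The low level of P4ha3 in the antibody library held in cells with and without a Pi16 UMI: in Pi16-positive cells it stood at 54.9 CPM with antibody, 145 CPM with IgG and 137 CPM with Matrigel alone. In Pi16-negative cells it stood at 75.3, 130.3 and 192 CPM.

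All 3 lysyl hydroxylases were at their highest in the IgG library. Plod2, which hydroxylates lysines in the telopeptides of collagen, stood at 632 CPM with antibody, 886 CPM with IgG and 555 CPM with Matrigel alone, and was 1.60-fold (1.56 to 1.64) higher in the IgG than in the Matrigel library. Plod3, which can also attach sugars to hydroxylysine, stood at 225, 275 and 161 CPM and was 1.71-fold (1.64 to 1.78) higher. Plod1 stood at 289, 380.3 and 266 CPM, and its ratio of 1.43 did not reach the limit. In the antibody library they lay in between, with ratios over the IgG library of 0.759 for Plod1, 0.713 for Plod2 and 0.818 for Plod3.

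P3h1, Crtap and Ppib (cyclophilin B) form the complex that 3-hydroxylates prolines of fibrillar collagens. They stood within the limits in all 3 comparisons, P3h1 at 157, 217 and 161 CPM, Crtap at 136, 181 and 180.2 CPM and Ppib at 977, 974 and 724 CPM in the antibody, IgG and Matrigel libraries. P3h3 and P3h4 belong to a complex with lysyl hydroxylase 1. P3h4 stood at 183 CPM with antibody, 246 CPM with IgG and 115 CPM with Matrigel alone, 2.14-fold (2.04 to 2.25) higher in the IgG than in the Matrigel library and 1.60-fold (1.504 to 1.69) higher in the antibody library, while P3h3 stood at 192, 239 and 234 CPM. P3h2, a 3-hydroxylase known for collagen IV, was a rare transcript: 70 UMIs (5.49 CPM) in the antibody library, 516 UMIs (19.2 CPM) in the IgG library and 37 UMIs (1.96 CPM) in the Matrigel library. IgG over Matrigel was 9.75-fold (6.98 to 14.003), and the antibody library was 3.49-fold lower (2.71 to 4.54) than the IgG library. Of its UMIs 52.9%, 13.0% and 37.8% lay in 10 cells of the antibody, IgG and Matrigel libraries. It was concentrated in cells with Col2a1, which were most frequent in the IgG library, but in cells without a Col2a1 UMI it also stood at 3.59, 6.72 and 1.97 CPM, an IgG over Matrigel ratio of 3.42 (2.33 to 5.11).

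Among the chaperones for collagen, Serpinh1, which encodes HSP47 and binds the folded triple helix, hardly varied. It stood at 2336 CPM with antibody, 2525 CPM with IgG and 2745 CPM with Matrigel alone, was detected in 98.3%, 98.7% and 98.5% of the cells, and its ratios were 0.925-fold (0.913 to 0.938) for antibody over IgG, 0.920-fold (0.909 to 0.930) for IgG over Matrigel and 0.851-fold (0.839 to 0.863) for antibody over Matrigel. The intervals lie below 1, so these small differences were beyond counting error, but the spread between libraries of 1 group is unknown. Fkbp10, a prolyl isomerase that works with the telopeptide lysyl hydroxylase, stood at 482, 653 and 379.8 CPM and was 1.72-fold (1.67 to 1.77) higher in the IgG than in the Matrigel library. Fkbp14, a related isomerase, stood at 88.1, 99.99 and 122 CPM, with every ratio within the limits.

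The 7 general chaperones lay within the limits in each library comparison. Hspa5, the chaperone BiP, stood at 967 CPM with antibody, 978 CPM with IgG and 799 CPM with Matrigel alone, with ratios of 0.988-fold (0.967 to 1.01) for antibody over IgG and 1.22-fold (1.2004 to 1.2496) for IgG over Matrigel. Hsp90b1, the chaperone GRP94, stood at 1729, 1788 and 1243 CPM, and the lectin chaperones Calr and Canx at 979, 1142 and 1049 CPM and 334, 367 and 302 CPM. Pdia3, Pdia4 and Pdia6, which form and exchange disulfide bonds, stood at 539.5, 572 and 452 CPM, 84.5, 75.0 and 60.8 CPM and 499.7, 525 and 454 CPM. Summed over the role, general chaperones made up 5133, 5448 and 4360 CPM in the antibody, IgG and Matrigel libraries.

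Among genes for the stress of the endoplasmic reticulum, Sdf2l1, a co-chaperone of BiP, stood at 36.9 CPM with antibody, 22.2 CPM with IgG and 18.3 CPM with Matrigel alone. It was 1.66-fold (1.47 to 1.88) higher in the antibody than in the IgG library and 2.02-fold (1.75 to 2.32) higher than in the Matrigel library. Dnajb9, another co-chaperone of BiP, stood at 44.5, 29.8 and 41.9 CPM, just inside the limit at 1.49-fold (1.34 to 1.66) for antibody over IgG, and Herpud1, which serves the degradation of misfolded proteins, stood at 100.7, 111 and 90.8 CPM. The transcription factors moved little: Creb3l1 (OASIS), which drives collagen I genes in osteoblasts, stood at 183 CPM with antibody, 236 CPM with IgG and 166 CPM with Matrigel alone, a ratio of 0.778-fold (0.741 to 0.815) for antibody over IgG and 1.42-fold (1.36 to 1.48) for IgG over Matrigel. Xbp1 stood at 169.6, 172 and 208 CPM, Atf4 at 233, 251 and 228 CPM, and Ddit3, which encodes the stress factor CHOP, at 39.2, 33.3 and 29.2 CPM, each within the limits. UMI counts of the 3' end do not separate spliced from unspliced Xbp1.

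Sec61b, a subunit of the translocation channel, stood at 900.0 CPM with antibody, 1046 CPM with IgG and 595 CPM with Matrigel alone, 1.76-fold (1.72 to 1.80) higher in the IgG and 1.51-fold (1.47 to 1.55) higher in the antibody library than in the Matrigel library. The pore subunit Sec61a1 stood at 299, 376 and 324 CPM, and the COPII coat genes Sec23a and Sec24d at 106, 122 and 109 CPM and 106, 117 and 121 CPM, all within the limits. Outside the cell, Bmp1, the proteinase that removes the carboxyl propeptide, stood at 748, 819.8 and 776 CPM, and its enhancers Pcolce and Pcolce2 at 735, 962 and 881 CPM and 166, 176 and 132 CPM. Pcolce ratios were 0.764-fold (0.746 to 0.782) for antibody over IgG and 1.09-fold (1.07 to 1.11) for IgG over Matrigel. Pcolce overlaps the protein-coding gene Fbxo24 on the same strand, so reads between them may be divided uncertainly. P3h2 overlaps the intronic gene AU015336 and Hsp90b1 the non-coding gene Gm15344 on the same strand, and some members overlap microRNA genes. An effect of these overlaps on the counts was not tested.

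In the lysyl oxidase family, Loxl1 had the widest difference between libraries of the 42 members after P3h2. Lox, the founding enzyme, stood at 1898 CPM with antibody, 1529 CPM with IgG and 1227 CPM with Matrigel alone: 1.24-fold (1.22 to 1.26) for antibody over IgG, 1.246-fold (1.23 to 1.27) for IgG over Matrigel and 1.55-fold (1.52 to 1.58), past the limit, for antibody over Matrigel. Loxl1, best known for elastic fibres, stood at 372 CPM with antibody, 226 CPM with IgG and 1001 CPM with Matrigel alone. It was 4.42-fold lower (4.30 to 4.55) in the IgG than in the Matrigel library and 2.69-fold lower (2.61 to 2.78) in the antibody than in the Matrigel library, while antibody over IgG was 1.64-fold (1.58 to 1.71). Loxl2 stood at 735 CPM with antibody, 465 CPM with IgG and 766 CPM with Matrigel alone, so the IgG library was low, at 1.65-fold lower (1.61 to 1.69) than the Matrigel library, and antibody over IgG was 1.58-fold (1.54 to 1.62). Loxl3 had the reverse of Loxl1's order, at 319, 359.9 and 169 CPM, 2.12-fold (2.04 to 2.21) higher in the IgG and 1.88-fold (1.80 to 1.97) higher in the antibody library than in the Matrigel library. Loxl4 was rare, at 188 UMIs (14.7 CPM), 212 UMIs (7.87 CPM) and 124 UMIs (6.58 CPM), with 1.87-fold (1.53 to 2.29) for antibody over IgG and 2.24-fold (1.78 to 2.83) for antibody over Matrigel. Lox, Loxl1, Loxl2 and Loxl3 thus did not follow 1 order over the libraries.

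Cell makeup moved with the libraries. Cells with a Pi16 UMI made up 31.3% of the mesenchymal cells (27.5 to 35.2) in the antibody library, 12.1% (10.49 to 13.9) in the IgG library and 55.2% (53.0 to 57.5) in the Matrigel library. After thinning each cell to 2000 UMIs the shares were 27.2%, 7.58% and 42.3%. Cells with an Inhba UMI made up 59.0%, 73.5% and 11.5% (38.7%, 44.1% and 2.997% after thinning), and cells with a Col2a1 UMI 9.80%, 36.5% and 0.0505% (4.14%, 22.3% and 0% after thinning, the last 0 of 1835 cells, which allows a share of up to 0.163%). Shallower cells were left out of the thinned shares, which rest on 556, 1412 and 1835 cells. Macrophages, a cell type set beside them for background, had such UMIs too: 3.83%, 1.95% and 4.24% had a Pi16 UMI, 1.53%, 2.63% and 0.200% an Inhba UMI, and 0.575%, 6.69% and 0% a Col2a1 UMI, the last 0 of 4503 cells, which allows up to 0.0666%. Few cells held both Pi16 and Inhba, at 16, 42 and 45 cells. Most cells with Col2a1 also held Inhba, 50 of 58 in the antibody and 468 of 539 in the IgG library. Ratios by Col2a1 and by Inhba are therefore not independent of each other.

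**Figure D2:**
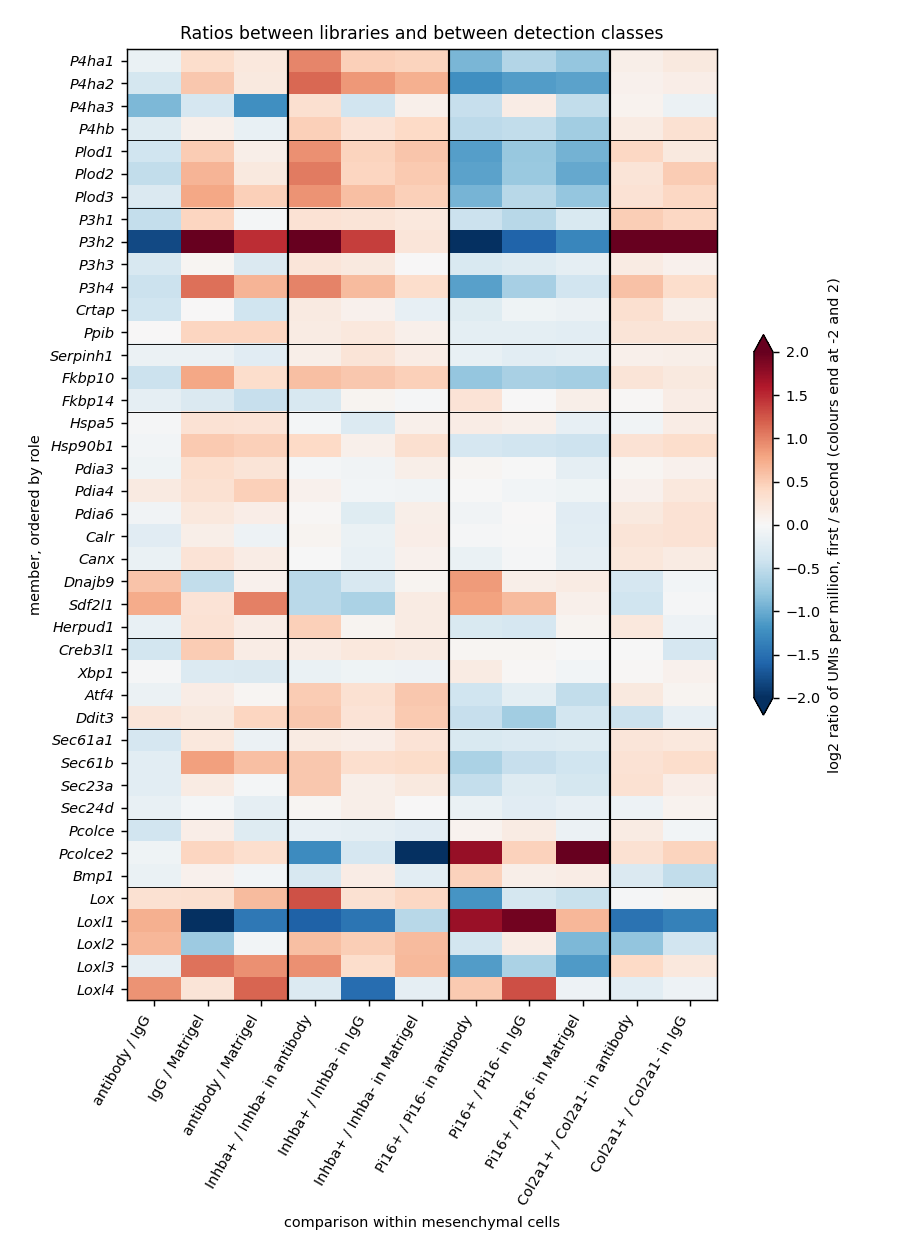
Log2 ratios of the 42 members within mesenchymal cells, as rows by role, for the 3 library comparisons, the Inhba and Pi16 classes of each library and the Col2a1 classes of the antibody and IgG libraries, with colours ending at -2 and 2. Red marks a higher level in the first group named and blue a lower one; the Inhba and Pi16 columns have opposite colours in most rows of the hydroxylases.

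In Pi16-positive cells of each library a set of hydroxylases, Fkbp10 and Loxl3 were low and Loxl1 was high. In the antibody library 4 members were higher and 11 lower in Pi16-positive than in Pi16-negative cells, against 18.1% and 22.2% of all genes. In the IgG library 3 were higher and 8 lower, against 15.3% and 15%, and in the Matrigel library 2 were higher and 10 lower, against 12.5% and 14.3%. The shares of members lower, 26.2%, 19.05% and 23.8%, were little above this background in the antibody and IgG libraries and further above it in the Matrigel library. Among genes with 100 UMIs or more on either side the background was 20.3%, 12.2% and 10.4%, and all 3 shares stood further above that one. Lower in all 3 libraries were 6 members, P4ha2, Plod1, Plod2, P3h2, Fkbp10 and Loxl3, and higher in all 3 was 1, Loxl1. The share of all genes that passed in all 3 libraries is not given, so these 2 counts have no background. Pi16-positive cells had median depths of 12603, 14510 and 8076 UMIs, against 24390, 17423 and 10024 UMIs for Pi16-negative cells, and the part of depth in these ratios was not tested beyond the thinned detection given with the alternatives.

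P4ha2 had 264 against 617 CPM in Pi16-positive against Pi16-negative cells of the antibody library, 337 against 732 CPM in the IgG library and 301 against 632 CPM in the Matrigel library, which is 2.34-, 2.17- and 2.10-fold lower. Plod2 had 337 against 711 CPM, 552 against 925 CPM and 361 against 731 CPM in the same comparisons, and Loxl3 166 against 359 CPM, 242 against 374 CPM and 105 against 228 CPM. The Pi16-positive cells were low in every library for these 3 genes, beyond counting error. The Pi16 ratio of P4ha1 was 0.531, 0.669 and 0.588 in the antibody, IgG and Matrigel libraries, that of Plod1 0.468, 0.590 and 0.522, and that of Fkbp10 0.587, 0.637 and 0.626. P3h4 was low in Pi16-positive cells of the antibody and IgG libraries, at ratios of 0.471, 0.629 and 0.763.

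Serpinh1, Hspa5, Creb3l1 and Pcolce lay within the limits in each library. Pi16 ratios were 0.901, 0.863 and 0.882 for Serpinh1, 1.10, 1.07 and 0.890 for Hspa5, 1.03, 1.03 and 0.997 for Creb3l1 and 1.05, 1.13 and 0.919 for Pcolce. Of the co-chaperones, Dnajb9 was 1.80-fold (1.504 to 2.15) and Sdf2l1 1.74-fold (1.42 to 2.12) higher in Pi16-positive cells of the antibody library, and Sdf2l1 1.54-fold (1.22 to 1.93) in the IgG library.

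Loxl1 was higher in Pi16-positive cells of all 3 libraries, and Pcolce2 in those of the antibody and Matrigel libraries. Loxl1 had 829.8 against 249.98 CPM for the antibody library (3.32-fold, interval 3.13 to 3.52), 668 against 175 CPM in the IgG library, a ratio of 3.82-fold (3.62 to 4.03), and 1239.9 against 783 CPM in the Matrigel library, a ratio of 1.58-fold (1.54 to 1.63). Pcolce2 had 372 against 111 CPM, 235 against 169.5 CPM and 249.9 against 23.6 CPM, with ratios of 3.35-fold (3.08 to 3.66), 1.38-fold (1.27 to 1.503) and 10.6-fold (9.23 to 12.1). Pcolce2 was thus low in Pi16-negative cells of the Matrigel library and less so in those of the BMP2 libraries; the difference between libraries was not tested. Loxl4 was 2.45-fold (1.73 to 3.41) higher in Pi16-positive cells of the IgG library, from 47 UMIs against 165. Lox ran the other way in the antibody library, at 952 against 2149 CPM, 2.26-fold lower (2.17 to 2.35), with ratios of 0.786 and 0.735 in the IgG and Matrigel libraries.

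**Figure D3:**
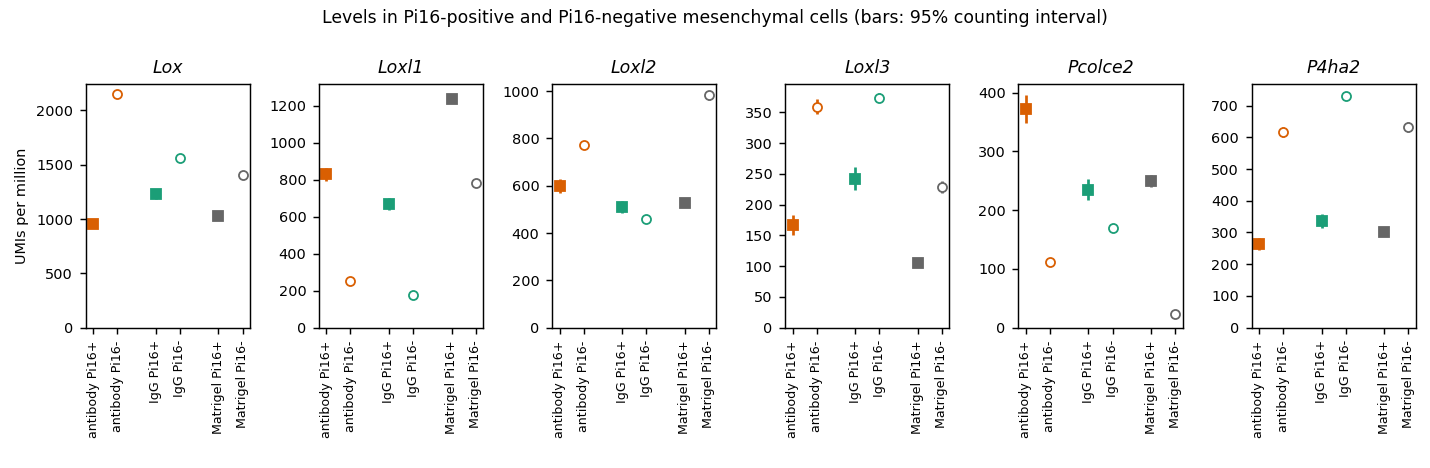
Levels of Lox, Loxl1, Loxl2, Loxl3, Pcolce2 and P4ha2, as CPM from 0, in Pi16-positive (filled squares) and Pi16-negative (open circles) mesenchymal cells of each library, with bars for the 95% counting interval. Loxl1 stands highest in both classes of the Matrigel library, and Loxl3 stands higher in the BMP2 libraries than in the Matrigel library within each class.

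Since the Pi16 share differs between the libraries, the members were also set side by side within a class. Loxl1 in Pi16-positive cells was 1.85-fold lower in the IgG than in the Matrigel library, and in Pi16-negative cells 4.48-fold lower, so the low level was found in both classes. For antibody over IgG the Loxl1 ratio was 1.24 (1.17 to 1.32) in Pi16-positive and 1.43 (1.36 to 1.501) in Pi16-negative cells, both under the limit that the whole class passed. Loxl2 in Pi16-negative cells stood at 771, 459.6 and 982 CPM in the antibody, IgG and Matrigel libraries, and in Pi16-positive cells at 598, 509 and 528 CPM. Its difference between the libraries thus lay in the Pi16-negative cells; the difference between the classes was not tested. Loxl3 was 2.31-fold higher in the IgG than in the Matrigel library in Pi16-positive and 1.64-fold in Pi16-negative cells, and P3h4 1.63- and 1.98-fold. Plod2 was 1.53-fold higher in Pi16-positive and 1.27-fold in Pi16-negative cells, the second under the limit.

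Cells with Inhba had more P4ha2 in each library, and more of several other hydroxylases in the antibody library. In the antibody library 11 members were higher and 2 lower in Inhba-positive than in Inhba-negative cells, against 19.6% and 17.8% of all genes. In the IgG library 4 were higher and 3 lower, against 10.9% and 14.1%, and in the Matrigel library 3 were higher and 1 lower, against 9.18% and 15.5%. The shares of members higher were 26.2%, 9.52% and 7.14%. Among genes with 100 UMIs or more on either side the background was 17.4%, 7.29% and 6.19%, so the IgG and Matrigel shares lay between both backgrounds and the antibody share above both. Inhba-positive cells were deeper, at medians of 26327, 18726 and 13692 UMIs, against 11885, 11028 and 8336.5 UMIs. With Inhba called after thinning, 4 members in place of 13 passed in the antibody library and 2 in place of 7 in the IgG library, so these counts depended on how the class was called.

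P4ha2 was the member higher in all 3 libraries, at 624 against 283 CPM in Inhba-positive against Inhba-negative cells of the antibody library (2.21-fold, interval 2.06 to 2.37), 749 against 412 CPM in the IgG library (1.82-fold, interval 1.73 to 1.91) and 695 against 423 CPM in the Matrigel library (1.64-fold, interval 1.57 to 1.72). Inhba ratios were 1.97, 1.39 and 1.36 for P4ha1, 2.05, 1.35 and 1.44 for Plod2, 1.86, 1.51 and 1.39 for Plod3 and 1.99, 1.55 and 1.27 for P3h4 in the antibody, IgG and Matrigel libraries. Lox stood out in the antibody library, at 2207 against 915 CPM, 2.41-fold (2.32 to 2.51) higher, with ratios of 1.23 and 1.33 in the IgG and Matrigel libraries. Loxl3 had ratios of 1.88, 1.28 and 1.57 and Loxl2 of 1.51, 1.41 and 1.56. P3h2 in the antibody library had 69 UMIs in Inhba-positive and 1 UMI in Inhba-negative cells, a ratio of 21.7-fold (3.77 to 870.1), and in the IgG library the ratio was 2.61-fold (1.87 to 3.73). With Inhba called after thinning, the P3h2 ratio in the antibody library was 0.966, on the other side of 1.

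Loxl1 and Pcolce2 were low in Inhba-positive cells. Loxl1 had 249 against 762 CPM, 174 against 479 CPM and 725 against 1065 CPM in Inhba-positive against Inhba-negative cells of the antibody, IgG and Matrigel libraries, 3.06-, 2.75- and 1.47-fold lower, the last within the limit. Pcolce2 was 2.40-fold lower (2.20 to 2.62), had a ratio of 0.795 in the IgG library and was 7.04-fold lower (5.63 to 8.93) in the Matrigel library, where 79 UMIs stood against 2398. Loxl4 was 2.86-fold lower (2.14 to 3.81) and Sdf2l1 1.54-fold lower (1.27 to 1.86) in the IgG library. Inhba ratios of Serpinh1 were 1.09, 1.197 and 1.10, of Hspa5 0.978, 0.826 and 1.07, of Creb3l1 1.11, 1.16 and 1.13 and of Pcolce 0.894, 0.886 and 0.854, all within the limits.

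Cells with Col2a1 were too few in the Matrigel library, at 1 cell, and numbered 58 in the antibody and 539 in the IgG library. In the antibody library 2 members were higher and 2 lower in Col2a1-positive than in Col2a1-negative cells, against 9.8% and 18% of all genes, and in the IgG library 1 was higher and 1 lower, against 6.21% and 13.1%. These shares were under the background. P3h2 was the member higher in both, at 18.5 against 3.59 CPM in the antibody library, 5.15-fold (3.10 to 8.47), and 38.0 against 6.72 CPM in the IgG library, 5.65-fold (4.57 to 7.05). P3h4 reached 1.503-fold (1.35 to 1.67) in the antibody library. Loxl1 was lower in both, at 146 against 405 CPM, 2.77-fold lower (2.43 to 3.17), and 117 against 299 CPM, 2.56-fold lower (2.41 to 2.73), and Loxl2 was 1.73-fold lower (1.60 to 1.86) in the antibody library. Col2a1 ratios in the antibody and IgG libraries were 1.07 and 1.09 for Serpinh1, 1.08 and 1.15 for P4ha1, 1.19 and 1.42 for Plod2, 0.983 and 1.03 for Lox, 1.12 and 0.964 for Pcolce, 0.950 and 1.11 for Hspa5, and 0.999 and 0.790 for Creb3l1.

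Against macrophages the list fell into a part shared by both cell types and a part found in mesenchymal cells. In mesenchymal cells 31 members were higher and 1 lower in the antibody library, against 36.5% and 27.2% of all genes. The IgG library had 31 higher and 1 lower, against 37.4% and 26.6%, and the Matrigel library 32 higher and 2 lower, against 35% and 27%. The shares of members higher, 73.8%, 73.8% and 76.2%, were above these backgrounds, and the median log2 ratios of 2.6, 2.66 and 2.25 over the members stood beside 0.16, 0.18 and 0.08 over all genes. In all 3 libraries 29 members were higher and 1, Sdf2l1, was lower, counts for which no share over all genes is given.

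Serpinh1 had 2336 against 5.61 CPM in mesenchymal cells against macrophages of the antibody library (416-fold, interval 325 to 542), 2525 against 24.4 CPM in the IgG library (104-fold, interval 91.2 to 118) and 2745 against 16.2 CPM in the Matrigel library (169-fold, interval 149 to 194). The ratio depends on how much free RNA of mesenchymal cells the droplets of macrophages held. The 9 matrix genes of the mesenchymal check put that share at 0.409%, 1.39% and 0.830% of the mesenchymal level in the antibody, IgG and Matrigel libraries. By this estimate free RNA would give 9.56, 35.0 and 22.8 CPM of Serpinh1, above the 5.61, 24.4 and 16.2 CPM seen in macrophages, so no macrophage level of Serpinh1 was detectable over free RNA. Estimates at 50% or more of the macrophage level were found for 9, 13 and 10 members, among them Plod2, P3h4, Fkbp10, Pcolce2, Bmp1, Lox, Loxl1 and Loxl2 in all 3 libraries. The mesenchymal ratios of these genes are to be read with that limit: 263, 71.9 and 109.9 for Lox, 139, 93.7 and 137 for Plod2, 319, 82.4 and 137 for Fkbp10 and 278, 84.7 and 127 for Loxl1. Loxl4 had 0 UMIs in macrophages of the antibody and Matrigel libraries, so it was at least 55.2- and 30.9-fold higher in mesenchymal cells, against a floor of 3 counts per library.

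**Figure D4:**
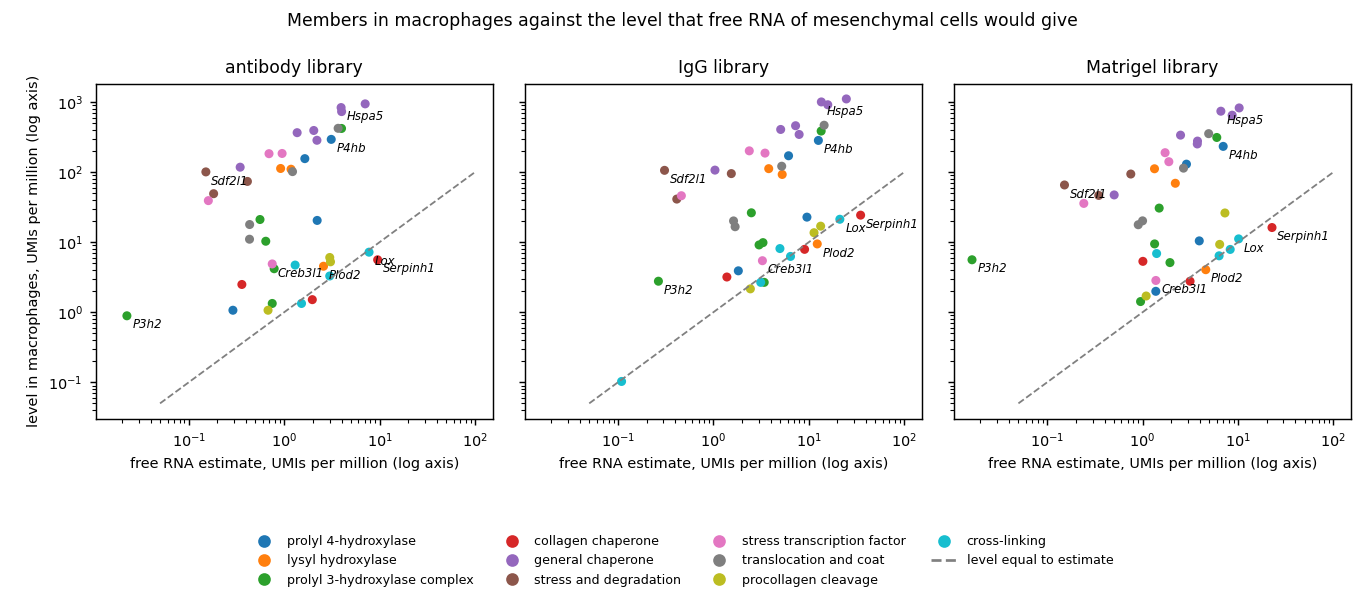
Level of each member in macrophages, in CPM, against the level that free RNA of mesenchymal cells would give there, both on log axes, with 1 panel per library and colours by role; members at 0 in macrophages are not drawn. Serpinh1, Lox and Plod2 lie near the dashed line of equal values, and Hspa5, P4hb and Sdf2l1 lie far above it.

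Many other members stood well above free RNA in macrophages. Free RNA estimates were at 5% or less of the macrophage level for 24, 19 and 23 members. P4ha1 had ratios of 2.58, 2.58 and 2.67, P4hb of 2.59, 3.20 and 3.62, Plod1 of 2.62, 4.10 and 3.83 and Plod3 of 1.99, 2.44 and 1.44 in mesenchymal cells over macrophages, so macrophages held these hydroxylase genes at about 38.8% (P4ha1), 38.6% (P4hb), 38.2% (Plod1) and 50.3% (Plod3) of the mesenchymal level in the antibody library. P4ha2, by contrast, had ratios of 26.5, 30.3 and 45.4. Hspa5 stood at 967 against 838 CPM, 978 against 1008 CPM and 799 against 743 CPM in mesenchymal cells against macrophages of the antibody, IgG and Matrigel libraries, within the limits in each. Canx, Dnajb9, Herpud1, Xbp1 and Ddit3 had ratios between 0.722 and 1.36 over the 3 libraries. Creb3l1, with ratios of 37.4, 43.3 and 58.5, was higher in mesenchymal cells, as were Pcolce, with ratios of 121, 56.7 and 33.7, and Bmp1, with 142, 59.96 and 83.3. Sdf2l1 was higher in macrophages: 36.9 against 100.99 CPM, 22.2 against 106 CPM and 18.3 against 65.7 CPM in mesenchymal cells against macrophages, 2.73-, 4.79- and 3.59-fold lower. P3h2 was 2.86-fold lower (1.91 to 4.35) in mesenchymal cells of the Matrigel library, at 1.96 against 5.62 CPM, and higher in those of the BMP2 libraries, at 5.49 against 0.891 CPM and 19.2 against 2.78 CPM.

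Within mesenchymal cells the members were last set against the collagen content of the cells. Cells were ranked into bins of 1 to 2%, 2 to 5%, 5 to 10% and 10% or more of their UMIs from Col1a1, Col1a2 and Col3a1, and levels are CPM after collagen genes were left out. The bins rest on genes of the gate itself, so no test was made. They held 62, 259, 237 and 34 cells in the antibody library, 161, 645, 604 and 68 in the IgG library and 26, 508, 1130 and 318 in the Matrigel library. In the highest against the lowest bin, 12 members were higher and 9 lower in the antibody library, against 20.7% and 28.4% of all genes. The IgG library had 9 higher and 11 lower, against 19.1% and 23.6%, and the Matrigel library 21 higher and 1 lower of 41 measured, against 20.8% and 27.1%. The share of members higher, 28.6%, 21.4% and 51.2%, was furthest above the background in the Matrigel library. The share of members lower, 21.4%, 26.2% and 2.44%, was under the background in the antibody and Matrigel libraries and near it in the IgG library. Higher in all 3 libraries were 8 members: P4ha2, Plod1, P3h3, Creb3l1, Pcolce, Bmp1, Loxl1 and Loxl2. For this count too, no share over all genes is given.

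Bmp1 had 414, 681, 1036 and 1505 CPM over the bins from low to high in the antibody library, 409.6, 694, 1163 and 1579 CPM in the IgG library, and 309.6, 647, 904 and 995 CPM in the Matrigel library. Creb3l1 had 140.0, 185, 227 and 238 CPM, 147, 224, 307 and 360.3 CPM and 32.0, 129.6, 185 and 264 CPM in the same order, the lowest Matrigel value from 6 UMIs. Both genes were higher in each successive bin in each library. The ratio of the highest to the lowest bin for Loxl1 was 2.30-fold (1.98 to 2.67), 5.36-fold (4.59 to 6.27) and 2.31-fold (1.85 to 2.91), and for P4ha2 1.92-fold (1.66 to 2.20), 1.82-fold (1.66 to 1.99) and 4.70-fold (3.22 to 7.15). Serpinh1 ratios were 1.35-fold (1.26 to 1.45), 1.29-fold (1.23 to 1.35) and 1.58-fold (1.44 to 1.75), P4ha1 ratios 1.10-fold (0.928 to 1.30), 1.33-fold (1.19 to 1.49) and 2.10-fold (1.54 to 2.93), Pcolce ratios 2.39-fold (2.13 to 2.68), 2.00-fold (1.86 to 2.14) and 1.96-fold (1.63 to 2.37). Plod2 and Lox differed between the libraries, with ratios of 1.53, 0.978 and 2.6003 for Plod2 and 0.961, 1.15 and 4.80 for Lox.

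Of the 7 general chaperones, 5 were lower in the highest than in the lowest collagen bin of both BMP2 libraries, while the share of all members that were lower was under or near the background, as given above. The share of all genes lower in both libraries is not given, so this count of 5 has no background. Hspa5 had 1201, 1113, 894 and 632 CPM over the bins from low to high in the antibody library, 1487, 1172, 817 and 661 CPM in the IgG library, and 881, 1034, 839.8 and 748 CPM in the Matrigel library. It was 1.90- and 2.25-fold lower in the highest than in the lowest bin of the antibody and IgG libraries, and 1.18-fold lower, within the limit, in the Matrigel library. Calr was 1.94- and 2.16-fold lower in the antibody and IgG libraries, Pdia6 1.81- and 2.13-fold, Hsp90b1 1.62- and 2.01-fold and Canx 1.65- and 1.72-fold. These are the 5 chaperones whose promoters are printed above, and in the Matrigel library each of them lay within the limits. The lowest Matrigel bin held only 26 cells, at a median of 2856 UMIs. Above that bin all 5 stood lower in each successive Matrigel bin. From the 2 to 5% bin to the highest, Calr went from 1298 to 923 CPM and Pdia6 from 566 to 393 CPM. Hsp90b1 went from 1525 to 1110 CPM and Canx from 359 to 291 CPM. Of the general chaperones without the element, Pdia3 lay within the limits in all 3 libraries, with ratios of 0.9748, 0.866 and 1.22, while Pdia4 had 0.832, 0.529 and 0.873 and so passed the limit in the IgG library. Above the lowest Matrigel bin Pdia4 also stood lower in each successive bin, at 78.0, 63.2 and 60.6 CPM. Pdia3 stood at 501, 501 and 469 CPM there. Herpud1 and Sec24d are the members with the related elements. Herpud1 had ratios of 0.990-fold (0.680 to 1.41), 1.32-fold (1.05 to 1.65) and 1.41-fold (0.844 to 2.56). Sec24d had ratios of 1.07-fold (0.752 to 1.49), 1.13-fold (0.894 to 1.42) and 2.12-fold (1.249 to 3.91). Whether an element had a part in any of the bin ratios was not tested. Sdf2l1 and Pcolce2, with promoters that hold no match of the element, were also lower in the highest bin of both BMP2 libraries, Sdf2l1 3.35- and 6.41-fold and Pcolce2 1.78- and 3.66-fold. Sec61b, also without a match in its promoter, was 1.48- and 1.64-fold lower, past the limit in the IgG library only. Loxl4 had 2 against 48 UMIs in the antibody library, a ratio of 0.155-fold (0.0182 to 0.590), and 5 against 29 UMIs in the IgG library, a ratio of 0.587-fold (0.177 to 1.53) whose interval holds 1. P3h2 had 3 against 98 UMIs in the IgG library, a ratio of 0.104-fold (0.0211 to 0.314), and 0 against 15 UMIs in the antibody library, which at the floor of 3 counts does not reach the limit.

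**Figure D5:**
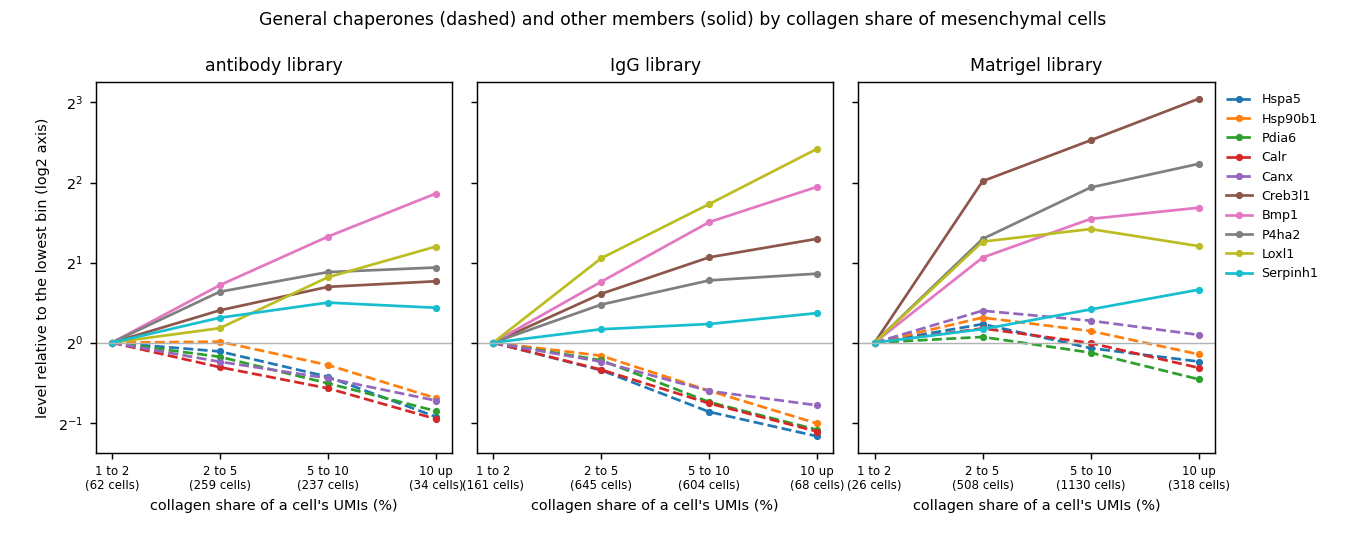
Levels of 5 general chaperones (dashed) and 5 other members (solid) by the collagen share of mesenchymal cells, relative to the lowest bin, on a log2 axis, with 1 panel per library and the number of cells under each bin. In the antibody and IgG panels the dashed lines end lower and the solid lines higher than they begin, and in the Matrigel panel the dashed lines end between 0.729 and 1.07.

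Other properties of the cells moved with collagen content. Col2a1-positive cells made up 22.6%, 12.4%, 4.64% and 2.94% of the bins from low to high in the antibody library and 55.9%, 45.7%, 23.8% and 14.7% in the IgG library. Summed Top2a and Mki67, genes of dividing cells, stood at 386, 269, 117 and 55.0 CPM in the antibody library, 402, 299, 209 and 156 CPM in the IgG library and 523, 334, 167 and 39.5 CPM in the Matrigel library. The lowest antibody bin had a median depth of 27611.5 UMIs, against 16276.5 in the highest. In the IgG library these medians were 18286 and 13882.5 UMIs. The lowest Matrigel bin had a median depth of 2856 UMIs, against 9602.5 in the highest. Leaving out Col2a1-positive cells, an alternative chosen after seeing the data, Hspa5 was at 629 CPM in the highest and 1188 CPM in the lowest bin of the antibody library, and at 670.0 and 1567 CPM in the IgG library, ratios of 0.529 and 0.428. P3h2 then stood at 4.39 CPM in the highest and 0 CPM in the lowest bin of the IgG library. Its 98 UMIs in that lowest bin thus all lay in Col2a1-positive cells. The Loxl1 ratio in the IgG library was 2.83 in place of 5.36. The part of the Pi16 and Inhba classes, of cell division and of depth in these ratios was not tested.

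Other genes of the pathway were taken from 6 lists, with the same limits. Among other procollagen proteinases 4 of 7 genes were measured, and 3 were lower in the IgG than in the Matrigel library: Adamts14, an amino-propeptide proteinase, at 11.2 against 67.3 CPM, a ratio of 0.167 (0.146 to 0.189), Adamts2, the main enzyme of this kind, at 229 against 610.1 CPM, a ratio of 0.376 (0.364 to 0.388), and Tll1, at 0.563 (0.333 to 0.944) from 29 against 36 UMIs. Adamts3 had a ratio of 1.27 (0.809 to 2.02). Antibody over IgG had Adamts14 higher, at 29.0 against 11.2 CPM, a ratio of 2.59 (2.22 to 3.02), and Adamts2 at 1.16 (1.11 to 1.21). Of the enzymes that glycosylate collagen, Colgalt2 stood at 4.55 against 16.7 CPM in the antibody against the IgG library, a ratio of 0.272 (0.204 to 0.359), and was 2.67 (2.17 to 3.29) for IgG over Matrigel, while Colgalt1 lay within the limits.

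Coat and export genes, 19 of 19 measured, had 0 higher and 0 lower for antibody over IgG and 0 higher and 1 lower for IgG over Matrigel. That gene was Ergic1, at 73.0 against 148 CPM, a ratio of 0.492 (0.464 to 0.521), followed by Sec24b at 0.709 (0.651 to 0.771). Lman1, a cargo receptor, and Kdelr3 had the highest ratios, 1.45 (1.41 to 1.504) and 1.40 (1.35 to 1.45). For antibody over IgG the extremes were Sec13 at 0.691 (0.653 to 0.732), Sec31a at 0.743 (0.712 to 0.775), Sec24c at 1.15 (1.05 to 1.26) and Ergic1 at 1.203 (1.12 to 1.30). Translocon genes, 12 of 12 measured, had 3 higher and 1 lower for IgG over Matrigel, with Ssr2 at 441 against 248 CPM, a ratio of 1.78 (1.72 to 1.84), Ssr4 at 1.74 (1.69 to 1.79), Tram1 at 0.957 (0.919 to 0.997) and Tram2 at 0.580 (0.532 to 0.632). For antibody over IgG none of the 12 passed, with Ssr1 at 0.797 (0.768 to 0.828), Tram2 at 0.847 (0.751 to 0.954), Ssr4 at 1.01 (0.979 to 1.03) and Spcs3 at 1.15 (1.08 to 1.23).

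Unfolded protein response genes outside the members, 22 of 22 measured, had 6 higher and 2 lower for IgG over Matrigel, with a median log2 ratio of 0.22. Derl3, of the degradation machinery, had 86 against 5 UMIs, a ratio of 12.02 (4.96 to 38.0), and Asns, the asparagine synthetase that ATF4 drives, 61.0 against 22.9 CPM, a ratio of 2.66 (2.39 to 2.96). Atf3 and Ppp1r15a, both induced in the integrated stress response, were the lowest, at 0.339 (0.263 to 0.434) and 0.585 (0.529 to 0.647). For antibody over IgG 2 were higher, Atf3 at 10.6 against 3.6001 CPM, a ratio of 2.94 (2.25 to 3.86), and Ppp1r15a at 1.83 (1.64 to 2.04), and 2 were lower, Derl3 at 0.319 (0.163 to 0.576) and Creb3l2, the paralogue of Creb3l1, at 114 against 172 CPM, a ratio of 0.663 (0.625 to 0.704). Among 7 genes for the synthesis of proline and serine 1 was higher for IgG over Matrigel, Shmt2 at 2.12 (1.96 to 2.29), beside Aldh18a1 at 1.46 (1.36 to 1.56), Psat1 at 1.07 (0.952 to 1.21) and Pycr1 at 0.864 (0.794 to 0.941). For antibody over IgG 1 was higher, Psph at 1.78 (1.57 to 2.03), beside Phgdh at 1.29 (1.16 to 1.43) and Aldh18a1 at 0.817 (0.760 to 0.879).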

How the data were processed

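Single-cell RNA was captured with 10x Genomics 3' chemistry, per the labels' protocols, and counted by the authors with Cell Ranger 3.0.2 on mm10, per the submitters' processing notes. The deposited values are whole UMI counts per gene and cell, not normalized, and the sources used here do not name the annotation release. Cells with at least 300 genes, 500 UMIs and at most 15% mitochondrial UMIs were kept (scanpy 1.11.5, numpy 2.4.6, scipy 1.17.1, pandas 2.3.3, matplotlib 3.10.9). Scrublet's own threshold marked only 4, 3 and 2 cells in the antibody, IgG and Matrigel libraries, so the highest scores were removed at 0.8% per 1000 cells, 285, 284 and 681 cells.

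Mesenchymal cells had at least 1% of UMIs from 3 collagen genes, and macrophages were other cells with at least 0.5% from 10 markers. Counts were summed per library and class. Ratios of CPM have exact conditional binomial intervals, at 95%, and shares exact Clopper-Pearson intervals; both cover counting error only. A group at 0 was set to 3 counts, as a bound in its own direction only. Free RNA in macrophages was estimated as the member's mesenchymal level times the share of 9 matrix genes seen in macrophages. The ratio step was tested on simulated counts.

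The members and lists were chosen with earlier results of these data known. Full values are given for members past 1.5-fold, at most 8 per comparison, and for Serpinh1, P4ha1, Plod2, Lox, Pcolce, Hspa5 and Creb3l1. Of other lists with at least 4 genes measured the highest and lowest pairs of ratios are named, except 1 value not reported here; the genes named from the collagen glycosylation list, and further members, were chosen after their values were seen. Alternatives were other gates, no doublet removal, other scaling, depth minimums, detection rules and folds.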

Additional observations from a re-analysis of the deposited data

Results flagged for a closer look

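P3h2, the 3-hydroxylase known for collagen IV, differed between libraries in its distribution over cell types. It was 6.16-fold higher in mesenchymal cells than in macrophages of the antibody library and 6.90-fold higher in the IgG library, while the ratio was 0.350 in the Matrigel library. The Matrigel ratio rests on 37 UMIs in mesenchymal cells and 79 in macrophages. The difference between the libraries was not tested, since each group had 1 library.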

How the results depend on the processing

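With a fold of 2 in place of 1.5, fewer members passed: 1 in place of 6 for antibody over IgG, 4 in place of 9 for IgG over Matrigel and 5 in place of 9 for antibody over Matrigel. By Inhba, 6 in place of 13 passed in the antibody library, 3 in place of 7 in the IgG library and 1 in place of 4 in the Matrigel library. By Pi16, 9 in place of 15, 4 in place of 11 and 5 in place of 12 passed in the antibody, IgG and Matrigel libraries, and by Col2a1, 2 in place of 4 in the antibody library. Detection after thinning gave 4 members by Inhba in the antibody library, 2 by Inhba in the IgG library, 17 by Pi16 in the IgG library and 6, in place of 2, by Col2a1 in the IgG library. Detection at 3 UMIs gave 17 by Pi16 and 7 by Col2a1 in the IgG library. A mean over cells gave 9 by Inhba in the Matrigel library. The P3h2 ratio by Inhba in the antibody library turned to 0.966 after thinning; the cause was not tested. Of 190 calls of a member past the limit, summed over 14 comparisons, 185 stayed past it without doublet removal and 182 with a mean over cells; of 64 calls in the class splits, 57 stayed at 3 UMIs and 46 after thinning. All 190 calls stayed with a collagen gate of 0.5%, other scaling or cells of 2000 UMIs or more, and 185 of 186 with a gate of 2%. Not run were the Col2a1 split of the antibody library at the 2% gate, at 3 UMIs and after thinning, with under 50 cells, and the Matrigel bins at 2000 UMIs or more, with a bin under 20 cells. No paired analysis was possible because each group had 1 library, so no replicate could be left out either. Differences between libraries cannot be told from differences between treatments.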
